A study of Mus musculus with 3 samples.

Results

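The occupancy of chromatin by TRα1, a nuclear receptor for thyroid hormone, was examined at 10 genes that build the cAMP signalling machinery of striatal neurons, namely Gnal, Gng7, Adcy5, Pde10a, Pde7b, Pde1b, Rgs9, Ppp1r1b, Arpp21 and Arpp19. The peak list of the series held 23988 TR binding sites (TRBS). A TRBS was attributed to a gene when its summit, the base with the most ChIP fragments, fell inside the gene body or within 30 kb of the 5′ end of the gene. This rule gave 126 TRBS to the 10 genes, and no TRBS was attributed to more than 1 of them. The data came from adult male C57BL/6J mice, 8 weeks old, untreated and euthyroid, whose GABAergic neurons carried a GS-tagged TRα1. All 3 libraries share this genotype and treatment: 2 ChIP libraries and 1 input library were made from dissected striatum, crosslinked with disuccinimidyl glutarate and then formaldehyde. The promoter that restricts the tagged receptor to GABAergic neurons, and whether tissue of several animals was pooled, are not given in the sources used here.

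In the striatum, dopamine and adenosine receptors act on projection neurons largely through cAMP. The G protein Golf, whose α subunit is encoded by Gnal and a γ subunit by Gng7, activates the adenylyl cyclase encoded by Adcy5. Phosphodiesterases degrade the cyclic nucleotides, RGS proteins shorten the signal of the opposing G proteins, and phosphoproteins such as the product of Ppp1r1b relay the activity of protein kinase A to phosphatases. TR binds DNA mainly together with RXR, on an element called DR4 in which the half-site AGGTCA occurs in tandem, separated by 4 bases.

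The series provides 1 peak list without values for single libraries. The ChIP libraries were therefore not compared with each other, sequencing depth was not analysed here, and no error below covers the variation between animals. For each TRBS, the pileup is the number of fragments over the summit and the fold enrichment is the ratio of the pileup to the local background after 1 is added to each, both as the authors' peak caller gave them. Intervals are 95% Poisson intervals for a pileup and 95% Wilson intervals for a share, and cover counting error only. The list holds positions on DNA and no RNA, so the labelled cell type was not checked against the expression of markers.

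All 10 genes had at least 1 TRBS, as did 57.7% of the 21938 protein-coding genes under the same rule. The number per gene ranged from 1 in Arpp19 to 29 in Pde10a, with a median of 9.5. At least 6 TRBS were found in 9 of the 10 genes and in 4.17% of protein-coding genes. A TRBS with a fold enrichment of 30 or more was found in 9 of the 10 genes and in 5.37% of protein-coding genes. The limits of 6 TRBS and of a fold enrichment of 30 were chosen after these values had been seen, and the genes themselves were selected with results of this list known, so the counts describe the genes and were not tested. Length also enters these counts, since the searched window was 60 kb for a short gene and reached 491 kb for Pde10a. Each gene was therefore also set beside all genes whose window was within 20% of its own.

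**Figure D1:**
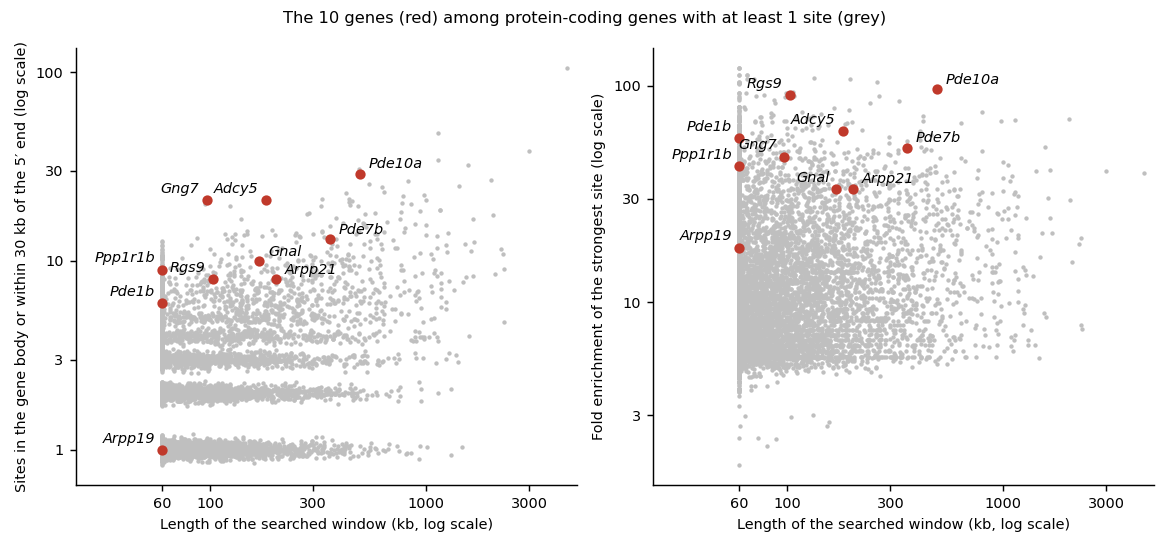
Number of TRBS (left) and fold enrichment of the strongest TRBS (right) of each protein-coding gene with at least 1 TRBS, against the length of the searched window in kb, all on log scales. Grey points, shifted slightly up or down in the left panel to separate them, are other genes, and red points are the 10 genes. Gng7 and Adcy5, with 21 TRBS each, stand above genes of like length, Arpp19 lies on the lowest line with 1 TRBS, and 9 of the 10 red points in the right panel lie at 30 or above.

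The stretches of DNA under the strongest TRBS are shown first, because the DR4 element is what TR is known to recognise. A DR4 with at most 2 mismatches in its 12 half-site bases was looked for within 100 bp of each summit. The strongest TRBS had one in 5 of the 10 genes, or 50% (23.7 to 76.3%). The same share over the strongest TRBS of all genes was not computed. Among TRBS with a fold enrichment of 30 or more, which leaves out that of Arpp19 (17.9), 4 of 14 in the 10 genes had one. That is 28.6% (11.7 to 54.6%), against 20.6% of all TRBS of that strength. Each stretch has 40 bases of GRCm38 from 5′ to 3′ on the strand of the match, with both half-sites in capitals. In the order printed they lie at chr17:8658960-8658999 (minus strand), chr16:35207464-35207503 (minus), chr15:103501089-103501128 (plus), chr11:98346088-98346127 (plus) and chr9:75019325-75019364 (minus).
Pde10a, intron 1: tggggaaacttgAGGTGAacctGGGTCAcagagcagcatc
Adcy5, intron 1: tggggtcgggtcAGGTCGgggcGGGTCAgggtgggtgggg
Pde1b, upstream: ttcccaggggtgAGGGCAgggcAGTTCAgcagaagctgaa
Ppp1r1b, upstream: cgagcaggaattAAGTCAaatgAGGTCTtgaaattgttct
Arpp19, upstream: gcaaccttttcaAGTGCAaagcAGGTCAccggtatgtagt

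Positions are counted from 1 at the first base of the 16-base element on the strand shown, with the consensus base first. Pde10a differs from the consensus by C5G and A11G, Adcy5 by A6G and A11G, and Pde1b by T4G and G13T. Ppp1r1b has G2A and A16T, and Arpp19 has G3T and T4G, so that its downstream half-site is intact. None of these 5 elements is a perfect DR4. Closer matches were found at weaker TRBS. Those of Gng7 and Pde10a, which carry a single mismatch within 100 bp of the summit, are shown for comparison, at chr10:81018406-81018445 and chr17:8910636-8910675, both on the minus strand.
Gng7, upstream: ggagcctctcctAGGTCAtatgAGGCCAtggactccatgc
Pde10a, intron 3: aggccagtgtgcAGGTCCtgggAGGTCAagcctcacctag

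The Gng7 element (T14C) had its centre 0.5 bp from a summit with a fold enrichment of 8.45. The Pde10a element (A6C) lay under a TRBS with a fold enrichment of 8.18. Across the 126 TRBS, 2 had a DR4 with at most 1 mismatch within 100 bp of the summit, or 1.59% (0.436 to 5.60%), against 3.11% of all TRBS.

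Gnal encodes the α subunit of Golf. It covers 139 kb of chromosome 18 (positions 67088216 to 67226792, plus strand) and held 10 TRBS, all inside the gene and none within 30 kb of its 5′ end. The fold enrichment was 11.9, 17.7, 6.32, 5.95, 6.32, 13.0, 4.85, 7.07, 7.81 and 33.2, in the direction of transcription. The last of these was the strongest, with 113 fragments (93.1 to 136) in intron 5, 121781 bp downstream of the 5′ end. That summit also lies 4631 bp from the 5′ end of Chmp1b, a gene nested in this intron, and 5 of the 10 TRBS are within reach of Chmp1b. The TRBS with the next highest value, 17.7, had its summit 50 bp from the start of Gnal-202, a shorter transcript that begins 44806 bp inside the gene. Among 1128 genes with a window of like length, 1.60% had as many TRBS and 6.21% as strong a TRBS, Gnal included.

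Gng7 encodes a Gγ subunit that partners with the product of Gnal in striatal neurons. The gene spans 66.3 kb of chromosome 10 (positions 80948624 to 81014945, minus strand) and held 21 TRBS, rank 19 among all protein-coding genes by number. Per 100 kb of window it held 21.8, which ranked 1. The strongest TRBS had 126 fragments (105 to 150) and a fold enrichment of 47.0, and its summit lay 13680 bp from the 5′ end of the gene but 100 bp from the start of the transcript Gng7-202. Of the others, 3 exceeded a fold enrichment of 20, at 27.4, 24.2 and 30.2, and the 4 summits lay between 11845 and 29173 bp downstream of the 5′ end. The remaining 17 TRBS ranged from 4.82 to 15.2. Of the 21 TRBS, 13 were also in reach of the neighbouring gene Diras1 and 8 of Slc39a3, so the list does not tell which gene they belong to. No other gene among the 2313 of like window length had as many, and 1.77% had as strong a TRBS.

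Adcy5, the adenylyl cyclase that produces most of the cAMP of striatal projection neurons, likewise held 21 TRBS over 151 kb of chromosome 16 (positions 35154877 to 35305738, plus strand). All 21 were intronic, and 15 of them lay in intron 1. The TRBS nearest to the 5′ end was 5579 bp away, so that none lay at the annotated start. The strongest had 180 fragments (155 to 208) and a fold enrichment of 61.5 at 52558 bp, and carried the DR4 shown above. A second strong TRBS at 65895 bp had 130 fragments (109 to 154) and a fold enrichment of 48.7, without a DR4 within 100 bp of its summit. The intervals of these pileups came within 1 fragment of each other without overlapping, and both lay above that of the weakest Adcy5 TRBS, 14 fragments (7.65 to 23.5). None of the 21 summits was within reach of another protein-coding gene. Among 975 genes of like window length, 0.103% had as many TRBS and 0.821% as strong a TRBS, Adcy5 included.

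**Figure D2:**
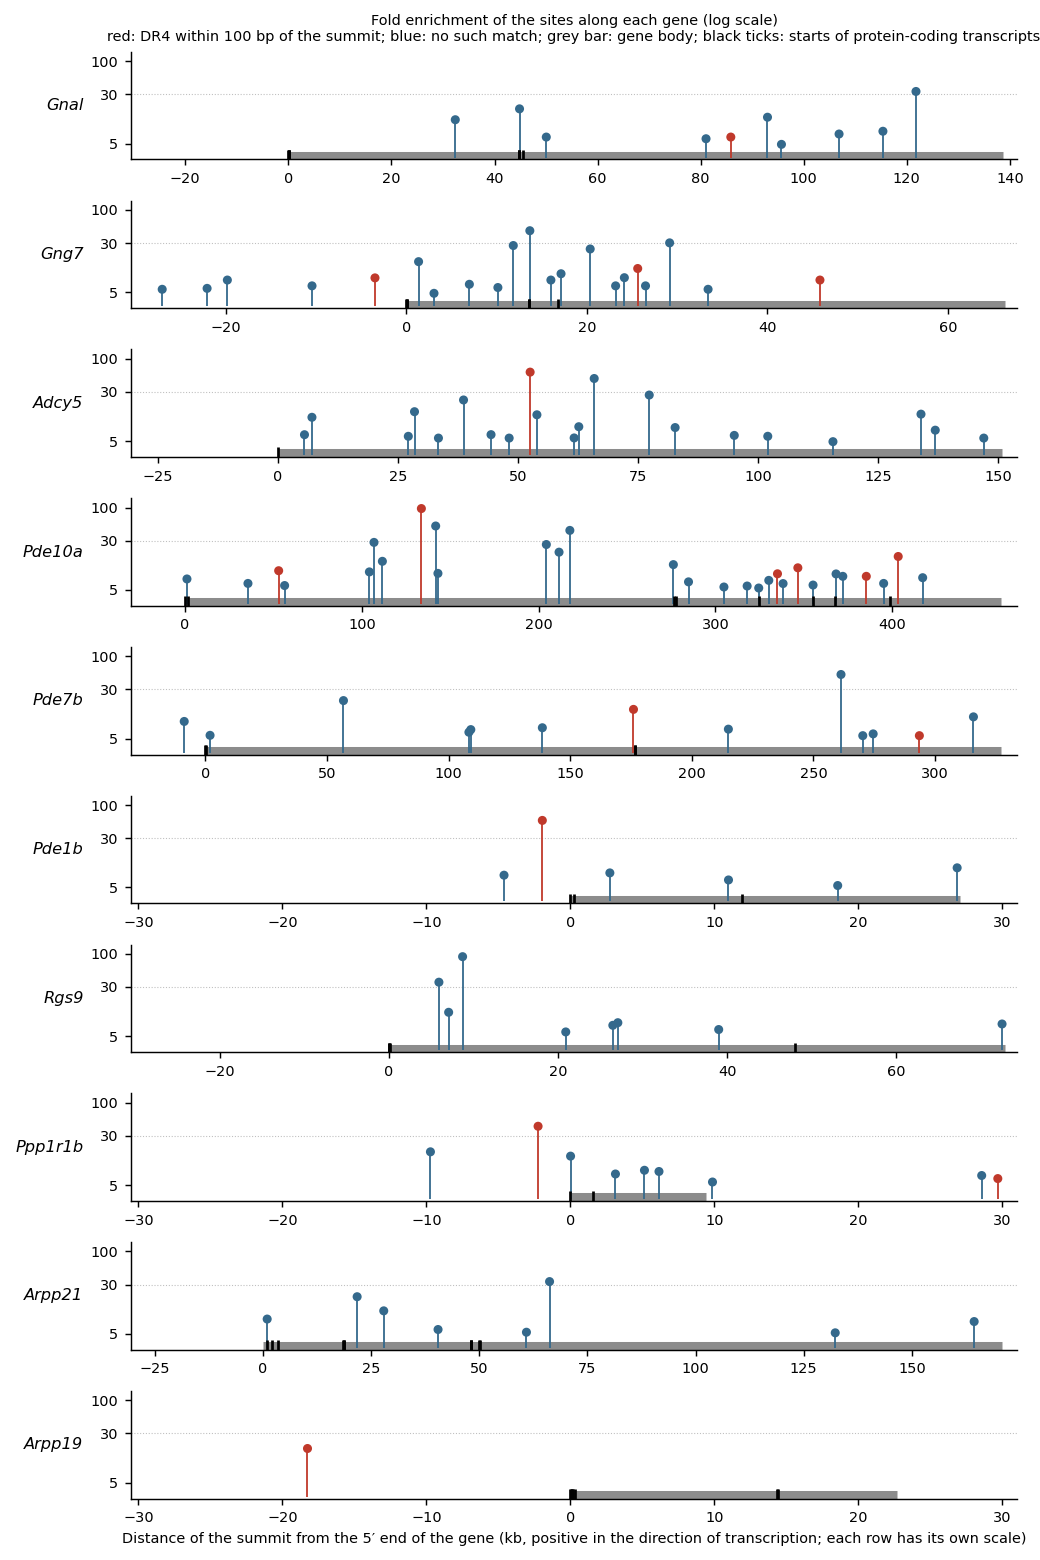
Fold enrichment of each of the 126 TRBS (log axis; the dotted line marks 30) against the distance of its summit from the 5′ end of its gene in kb, with 1 row per gene. Grey bars are gene bodies, black ticks are starts of protein-coding transcripts, and red points have a DR4 within 100 bp of the summit. Strong TRBS lie far inside Pde10a, Pde7b, Adcy5 and Gnal and just upstream of Pde1b and Ppp1r1b.

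The 3 phosphodiesterases of the group differed in layout. Pde10a, which hydrolyses cAMP and cGMP and is abundant in striatal projection neurons, spans 461 kb of chromosome 17 (positions 8525372 to 8986648, plus strand). It held 29 TRBS, rank 7 among all protein-coding genes by number, and every summit was intronic. Per 100 kb of window it held 5.90, which ranked 1350. Its strongest TRBS, 133665 bp from the 5′ end in intron 1, had 258 fragments (227 to 291) and a fold enrichment of 96.3, the highest among the 126. Intron 1 held 12 TRBS, among them the other 2 of a fold enrichment of 30 or more, at 51.1 and 43.5, whereas the 12 TRBS of intron 2 reached at most 12.5. Of the latter, 4 had their summit close to the start of a shorter Pde10a transcript, at 116 bp from Pde10a-202, 116 bp from Pde10a-206, 171 bp from Pde10a-201 and 325 bp from Pde10a-209. Their fold enrichments were 12.5, 5.35, 5.96 and 8.93, below the 3 strong TRBS of intron 1. Among 231 genes of like window length, 0.866% had as many TRBS and 0.433% had as strong a TRBS, Pde10a included. It also held 6 of the 17 TRBS with a DR4 within 100 bp of the summit. The 5′ end of Pde10a was the nearest 5′ end for 1 of the 29 summits, and 3 were also in reach of the gene Gm17087.

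Pde7b encodes a phosphodiesterase specific for cAMP and spans 327 kb of chromosome 10 (positions 20398004 to 20725078, minus strand). It held 13 TRBS, whose strongest, with 151 fragments (128 to 177) and a fold enrichment of 51.6, lay 261329 bp from the 5′ end. No DR4 was found within 100 bp of that summit, although an element with 2 mismatches, centred 136.5 bp away, was present in the called interval. Next came 20.0 and 14.5, and the latter lay 596 bp upstream of the start of Pde7b-202, with a DR4 centred 9.5 bp from its summit. The window of Pde7b is long, and 4.09% of 367 genes of like length had as many TRBS and 2.997% as strong a TRBS.

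Pde1b, a calmodulin-dependent phosphodiesterase, is a compact gene of 27.0 kb on chromosome 15 (positions 103503034 to 103530052, plus strand). Its 6 TRBS had fold enrichments of 7.81, 57.3, 8.49, 6.57, 5.36 and 10.2. A single TRBS thus stood apart, with 153 fragments (130 to 179) against 14 to 27 at the others. It lay 1950 bp upstream of the 5′ end and carried the DR4 shown above, centred 24.5 bp from the summit. Downstream, 3 of the 6 were also within reach of Ppp1r1a, which encodes another inhibitor of protein phosphatase. Of 16093 genes of like window length, 2.13% had as many TRBS as Pde1b and 0.802% as strong a TRBS.

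Rgs9 encodes a regulator of G protein signalling that accelerates GTP hydrolysis by the α subunits of inhibitory G proteins. It covers 72.8 kb of chromosome 11 (positions 109225355 to 109298129, minus strand), and its 8 TRBS had fold enrichments of 35.7, 11.9, 90.4, 5.85, 7.44, 8.18, 6.38 and 7.81 from the 5′ end onwards. The first 3 formed a cluster in intron 1, from 5891 to 8691 bp, and the other 5 were at least 20891 bp away and weak. The strongest, with 242 fragments (212 to 274), ranked 29 among the strongest TRBS of all genes, and 0.141% of 2123 genes of like window length had one as strong and 1.74% as many TRBS, Rgs9 included. No DR4 with at most 2 mismatches was found in the called interval of any of the 8. The 121 bases centred on the summit of the strongest, chr11:109289378-109289498 on the plus strand, are shown as an example of strong occupancy without the element.
Rgs9, intron 1: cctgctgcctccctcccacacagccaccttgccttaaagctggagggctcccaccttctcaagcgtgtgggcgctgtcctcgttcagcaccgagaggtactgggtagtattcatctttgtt

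Ppp1r1b encodes the inhibitor of protein phosphatase through which dopamine modulates phosphorylation in projection neurons. The gene is short, 9.39 kb of chromosome 11 (positions 98348404 to 98357796, plus strand), and its 9 TRBS had fold enrichments of 16.7, 42.4, 14.3, 7.47, 8.55, 8.18, 5.58, 7.07 and 6.32. The strongest, with 113 fragments (93.1 to 136), lay 2245 bp upstream of the 5′ end. The next in the direction of transcription, with 39 fragments (27.7 to 53.3), had its summit 12 bp inside exon 1, the closest to an annotated 5′ end of any of the 126. Ppp1r1b was the only gene of the 10 besides Arpp21 with a TRBS within 1 kb of its 5′ end. Its surroundings are dense in genes: all 9 TRBS were also within reach of Stard3 and 7 of them of Neurod2, so that attribution to Ppp1r1b is not exclusive. Of 16093 genes of like window length, 0.236% had as many TRBS and 2.08% as strong a TRBS.

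Arpp21 and Arpp19 encode cAMP-regulated phosphoproteins, of which the first binds RNA and the second inhibits protein phosphatase 2A once phosphorylated. Arpp21, 171 kb on chromosome 9 (positions 112065091 to 112235938, minus strand), held 8 TRBS with fold enrichments of 8.55, 19.3, 11.5, 5.85, 5.30, 33.4, 5.18 and 7.81. The strongest had 100.0 fragments (81.4 to 122) at 66232 bp, and the TRBS nearest to the 5′ end lay 24 bp from the start of the transcript Arpp21-223. Among genes of like length, 4.88% had as many TRBS and 6.79% as strong a TRBS. Arpp19 was the exception of the group. Its only TRBS lay 18271 bp upstream of the 5′ end, inside an intron of the neighbouring gene Fam214a, with 56 fragments (42.3 to 72.7) and a fold enrichment of 17.9. Of the genes with this window, 52.0% had at least as many and 11.2% as strong a TRBS. The DR4 of this TRBS was centred 1.5 bp from the summit, and another element with 1 mismatch lay 602.5 bp away in the same interval of 1187 bp.

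**Figure D3:**
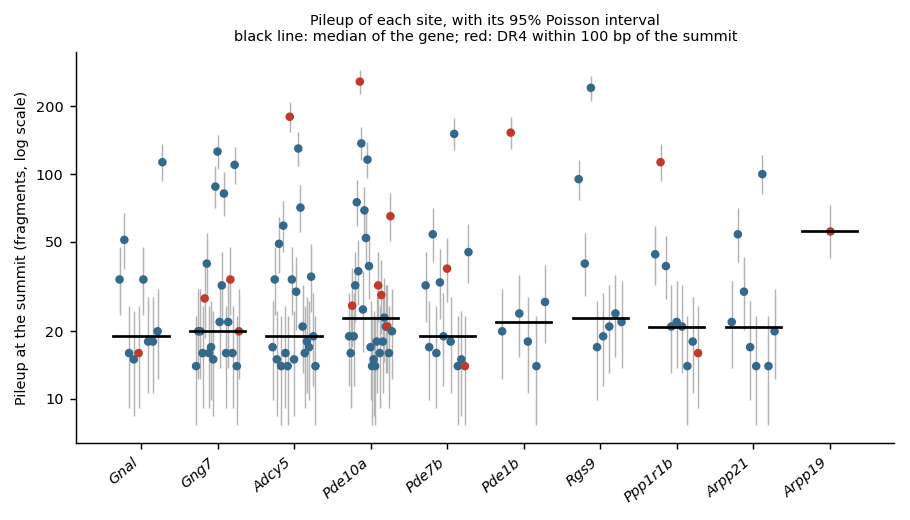
Pileup at the summit of each TRBS in fragments (log axis), by gene, with its 95% Poisson interval in grey and the median of the gene as a black line. Red points have a DR4 within 100 bp of the summit. Gene medians, apart from Arpp19 with its single TRBS, lie between 19 and 23 fragments, while the strongest TRBS of the 9 other genes have 100.0 to 258.

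In each of the 9 genes with several TRBS, 1 to 3 TRBS had a fold enrichment of 30 or more and the median was below 10. The fold enrichment of the 126 TRBS had a median of 7.81 (interquartile range 6.31 to 13.9), beside a median of 7.40 (5.95 to 11.2) over all TRBS. The pileup had a median of 21 in both. The upper end differed more: 14 of the 126, or 11.1% (6.73 to 17.8%), had a fold enrichment of 30 or more, against 3.75% of all TRBS. Pde10a contributed 3 of these 14, Gng7, Adcy5 and Rgs9 contributed 2 each, and the others except Arpp19 contributed 1 each. A score of at least 200 was reached by 48, or 38.1% (30.1 to 46.8%), against 31.4% of all TRBS. The local background, which enters the fold enrichment, was at its lowest value of 1.69 fragments at 64 of the 126, or 50.8% (42.2 to 59.4%), against 42.3% of all TRBS. Its part in the fold enrichments was not tested.

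The TRBS of these genes lay mostly downstream of the 5′ end, 115 against 11 upstream, and 75 were farther than 30 kb from it. For 35 of them another protein-coding gene was in reach under the same rule, and for 58 the nearest 5′ end was that of another gene. The gene bodies belong to the rule by which the TRBS were chosen, so positions are given as a description. Introns held 111 of the 126 summits, or 88.1% (81.3 to 92.7%), compared with 49.8% of all TRBS. Of the 111, 106 lay inside the gene to which they were attributed, which is 84.1% of the 126, and the rest in introns of neighbouring genes. Exons held 8, or 6.35%, compared with 11.6% of all TRBS, and only that in exon 19 of Rgs9, the last exon, was in coding sequence. The 5 kb upstream of a gene held 5, compared with 9.43% of all TRBS, and 2 were intergenic, compared with 28.4%. A closer background is that of summits inside protein-coding genes, of which 81.2% were intronic, against 93.3% (87.3 to 96.6%) of the 119 summits of the 10 genes that lay in a gene. At the border of the rule, the outermost summit included was that of Ppp1r1b at 29679 bp, with a fold enrichment of 6.32, and the nearest left out lay 30828 bp from the same 5′ end, with a fold enrichment of 9.48.

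Within 1 kb of the 5′ end of any protein-coding gene lay 5 of the 126, or 3.97% (1.71 to 8.95%), in contrast to 20.4% of all TRBS. When every start of a protein-coding transcript was considered, the numbers were 17, or 13.5% (8.60 to 20.5%), against 24.6% of all TRBS. Seen from the transcripts, 17 of the 55 distinct starts annotated for the 10 genes had a TRBS within 1 kb, or 30.9% (20.3 to 44.0%), against 24.1% of all such starts. These 17 starts were in 7 genes, and most belonged to Pde10a (5 of 8 starts), Gnal (4 of 8) and Gng7 (3 of 6). The 4 starts of Gnal lie within 1 kb of each other and share 1 TRBS. Gng7-202 and Gng7-204 also share 1 TRBS, as do Pde7b-202 and Pde7b-205. The interval treats these starts as independent, which they are not. Adcy5, Rgs9 and Arpp19 had none. The strongest TRBS was farther than 1 kb from any start of its own gene in 9 of the 10 genes, Gng7 being the exception. The same share over the strongest TRBS of all genes was not computed. Most TRBS of the whole list also lay farther than 1 kb from such a start, since 24.6% were within it.

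A DR4 with at most 2 mismatches was present within 100 bp of the summit in 17 of the 126 TRBS, or 13.5% (8.60 to 20.5%), and in 13.1% of all TRBS. The share in the 10 genes was therefore near that of the whole list. When windows of the same width were taken 5 kb to the right of each summit, a DR4 was found in 6 of 126, or 4.76%, and in 2.30% of the windows of all TRBS. Of these 126 windows, 15 touched another TRBS. Over the whole called interval, 27 TRBS had a DR4, or 21.4%, against 17.3% of all TRBS. Intronic TRBS of the 10 genes had it in 14 of 111 cases, or 12.6% (7.66 to 20.1%), against 14.7% of all intronic TRBS. At a fold enrichment of 30 or more, 4 of 14 carried it, or 28.6% with an interval from 11.7 to 54.6%, against 20.6% of all TRBS of that strength. The element was found within 100 bp of a summit in 8 of the 10 genes, Rgs9 and Arpp21 being without it. A gene with many TRBS has more summits at which a match can occur. The same share over genes with as many TRBS was not computed, so this count is a description only.

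Other spacings of the half-site were looked for in the same windows, from DR0 to DR8, where the number is that of bases between the half-sites, together with the everted ER6 and the inverted IR0. DR6 was found at 7 TRBS, or 5.56% (2.72 to 11.0%), against 2.23% of all TRBS and against 5 of the 126 shifted windows (3.97%), and every spacing other than DR4 and DR6 at 4 or fewer. IR0 was found at none, which allows a share of up to 2.38% when 3 counts are taken as the limit (the Wilson interval reaches 2.96%), against 1.24% of all TRBS. Exact matches to motifs of 8 other factors were counted on both strands. The E-box CAGCTG occurred at 19 TRBS, or 15.1%, against 12.8% of all TRBS. The AP-1 motif TGANTCA occurred at 11, or 8.73%, against 11.5%, and the GC box GGGCGGG at 8, or 6.35%, against 11.1%. In the 126 shifted windows the E-box was found at 8.73%, the AP-1 motif at 6.35% and the GC box at 1.59%. The cAMP response element TGACGTCA, the site of CREB, was at none of the 126 and at 0.542% of all TRBS. MEF2 was found at 2 of the 126, at 3 of the shifted windows and at 3.21% of all TRBS. NBRE was found at 1 of the 126, at 1 of the shifted windows and at 1.15% of all TRBS. Egr and NFI were found at 0, and at 0.379% and 0.00417% of all TRBS.

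**Figure D4:**
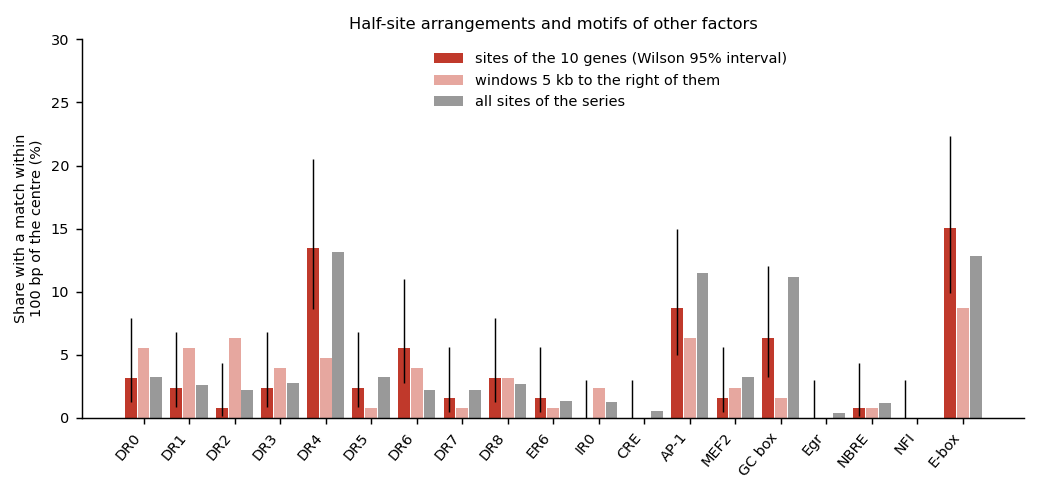
Share of TRBS in percent with a match within 100 bp of the summit, for the 126 TRBS of the 10 genes (red, bars with 95% Wilson intervals), for windows 5 kb to their right (pink) and for all TRBS of the series (grey). Among the half-site arrangements DR4 is the most frequent in the red bars, at 13.5%, beside 4.76% in the shifted windows.

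The remaining genes of the pathway were examined through a list of 97 further genes. At least 1 TRBS was found for 81 of them, or 83.5%, against 57.7% of all protein-coding genes. The median was 2 per gene against 1, in a median window of 88.6 kb against 60 kb. A TRBS with a fold enrichment of 30 or more was found for 10 of the 97, against 5.37% of all protein-coding genes. The other adenylyl cyclases stood far from Adcy5. A TRBS was found in 7 of 9 (77.8%), with at most 4 in a gene (Adcy6) and a fold enrichment of at most 15.2 (Adcy1). Of 19 other G protein subunits 13 had a TRBS, or 68.4%, against 57.7% of all protein-coding genes. Gnas, which encodes the ubiquitous α subunit closest to that of Gnal, had none, and no other Gγ gene had more than 4 (Gng5). A TRBS with a fold enrichment of 30 or more was found in 2 of the 19, against 5.37% of all protein-coding genes. Gnb2, a Gβ gene, had 5 TRBS with a strongest of 31.4. The other was Gnao1, encoding the α subunit of Go, with 11 TRBS and a strongest one of 180 fragments (155 to 208) and a fold enrichment of 67.3, 29489 bp inside the gene in an intron.

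Among 15 other phosphodiesterases, 12 had a TRBS, or 80%, against 57.7% of all protein-coding genes. Their median window was 160 kb, against 60 kb for all protein-coding genes. Pde4b had 12, Pde2a and Pde8b had 11 each, with strongest fold enrichments of 27.0, 30.7 and 39.8. The close relatives of Pde1b, Pde1a and Pde1c, had 1 and 3, and Pde7a had 0. Of 11 RGS proteins and partners 10 had a TRBS (90.9%), again against 57.7% of all protein-coding genes, which is also the background of the next families. Rgs7bp, which anchors RGS complexes at the membrane, had 8 with a strongest of 42.6, and Rgs7 had 5 with a strongest of 19.8. Protein kinase A and its anchors had a TRBS in 17 of 18 genes (94.4%). The phosphatases and their regulators had one in 13 of 15 (86.7%), and the effectors of cAMP in 9 of 10 (90%). The median window was 60 kb for the RGS group and 111 kb for protein kinase A and its anchors. It was 67.0 kb for the phosphatases and 99.2 kb for the effectors, against 60 kb for all protein-coding genes. None of the families was set beside genes of like window length. Ppp1ca, the catalytic subunit whose activity the product of Ppp1r1b restrains, had 4, of which the strongest reached 50.6 with 185 fragments (159 to 214). Its summit, 4191 bp from the 5′ end, lay beyond the 3′ end of Ppp1ca, in an exon of the neighbouring gene Rad9a, with a DR4 within 100 bp. Gnao1 and Ppp1ca were the only genes of this list whose strongest TRBS exceeded 49.3, the median of the strongest over the 10 genes.

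**Figure D5:**
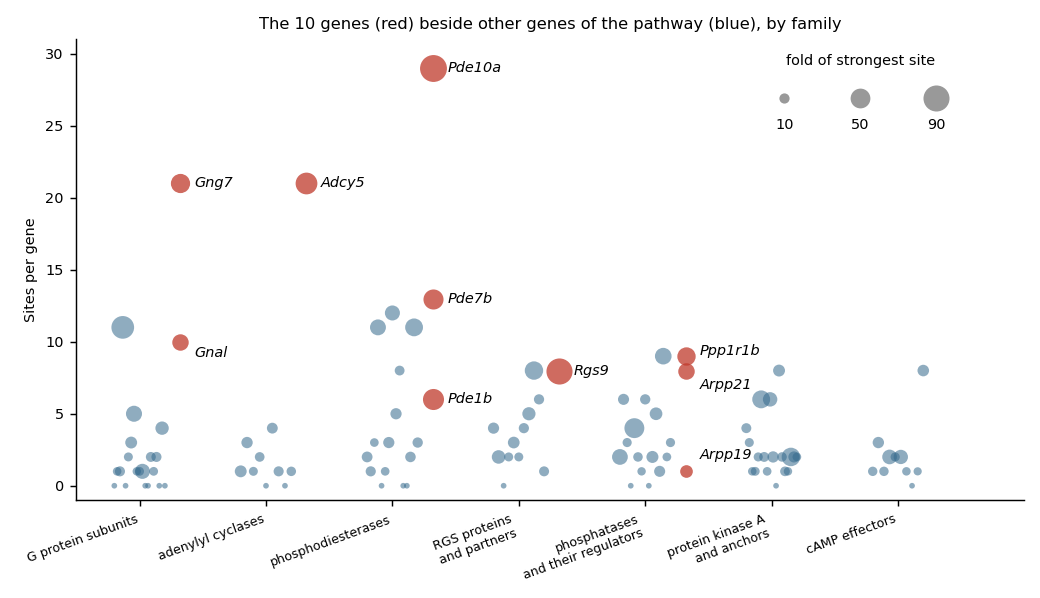
Number of TRBS per gene for the 10 genes (red, named) and for the 97 other genes of the pathway (blue), by family. The area of each point grows with the fold enrichment of its strongest TRBS. Pde10a, Gng7, Adcy5 and Pde7b, with 29, 21, 21 and 13 TRBS, lie above every blue point, the highest of which has 12, while the other 6 red points lie within the range of the blue points.

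The receptors upstream of this pathway had fewer TRBS per gene than its most occupied genes, but in shorter windows. The median window of the 9 receptor genes was 60 kb, against 136 kb for the 10 genes. Per 100 kb of window, Adora1 had 10.6 TRBS, Drd1 6.67 and Drd2 4.10. Gng7 had 21.8, Adcy5 11.6 and Pde10a 5.90. Drd1 and Drd2, the main dopamine receptors of the projection neurons, had 4 TRBS each, with strongest fold enrichments of 20.1 and 20.8, and Adora1 had 7 with a strongest of 11.9. Adora2a, the adenosine receptor of the indirect pathway, had none in reach. In all, 5 of 9 dopamine and adenosine receptor genes had a TRBS, or 55.6%, near the 57.7% of all protein-coding genes. Among 6 neuropeptide genes, Penk, Tac1 and Cartpt had 1 each, at 6.97, 5.95 and 5.58, and Pdyn, Npy and Sst had none. In the Hox genes, which are not active in the forebrain, 8 of 39 genes were in reach of a TRBS. That is 20.5%, against 57.7% of all protein-coding genes. These 8 genes were reached by 3 TRBS in all. Of these TRBS, 2 were in reach of Hoxd1, with a strongest fold enrichment of 25.1.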

How the data were processed

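The series comprised 2 ChIP libraries for TRα1 and 1 input library, grouped by their titles. The submitters' processing notes name Bowtie2 2.3.2.2 and MACS2 2.1.1.20160309.0, with GRCm38 (mm10) as the genome. Peaks scored under 60 had been discarded by the authors. Pooling of the ChIP libraries at the calling step is not given in the sources used here. The pileup in the deposited list is a fragment coverage signal at the summit. The authors' fold enrichment is a ratio, namely the pileup plus 1 over the local background plus 1. The deposited score, which is 10 times the deposited −log10 q, served only to filter.

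Genes, transcripts and exons were those of GENCODE vM21 (21938 protein-coding genes), and chromosome lengths were checked against the list. The 5′ end was that of the gene. Summits were assigned to an exon of a protein-coding transcript, otherwise to an intron, then to upstream (5 kb) or downstream (1 kb) sequence, and the rest were intergenic. DR4 and the other arrangements were searched on both strands with at most 2 mismatches in 12 half-site bases. No sequence of chromosome 18 is shown. Sequence was shown for DR4 matches in the strongest TRBS outside exons. The weaker Gng7 and Pde10a elements and the Rgs9 stretch were added after their values had been seen. Genes of the further lists were named when their strongest TRBS exceeded the median of the strongest over the 10 genes, and the other paralogs, receptors and neuropeptide genes were named after their values had been seen.

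No test was made, since 1 peak list without values for single libraries allows none between samples. The members and lists were chosen with earlier results of these data known. The alternatives were a stricter score, other distances and ways of attribution, other mismatch limits and leaving out Pde10a. The search found all 500 elements planted in random sequence, and the attribution of 400 simulated positions matched a direct count. Software was scipy 1.17.1, pandas 2.3.3, matplotlib 3.10.9 and numpy 2.4.6 under Python 3.11.15.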

Additional observations from a re-analysis of the deposited data

How the results depend on the processing

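Of 32 alternative values, 22 moved by less than the interval of the main value, or by less than 1.5 times for a count, and 10 moved more. The number of TRBS of the 10 genes was 126. It became 48 at a score of at least 200, 51 when the gene body was left out of the rule and 68 when each TRBS was given only to the nearest 5′ end. The genes with at least 1 TRBS numbered 9 or 10 under each alternative, where 30.6 to 57.8% of all protein-coding genes had one. Without the gene body Gnal had none, and within 10 kb or the body Arpp19 had none. The share with a DR4 was 20.8% at the stricter score (16.3% of all TRBS), 1.59% with at most 1 mismatch, 42.1% with at most 3 (38.2% of all) and 21.4% over the whole interval. The median fold enrichment became 17.8 at the stricter score, which removes weak TRBS by construction, beside 14.5 over all TRBS. The share in introns fell to 74.5% without the gene body in the rule, which removes summits far inside genes. The genes of the list of 97 with a TRBS numbered 42 at the stricter score, where 30.6% of all protein-coding genes had one. Under the main rule these values were 81 and 57.7%. Without Pde10a the share with a DR4 was 11.3% and the median fold enrichment 7.81. No paired analysis was possible because the peak list carries no values for single libraries, and for the same reason no library could be left out. A pileup near the lowest value of 14 fragments has an interval from 7.65 to 23.5, so weak TRBS of a gene cannot be ranked by these data.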
